A study of Rattus norvegicus with 16 samples.

Results

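Enzymes that oxidise, reduce and conjugate foreign and endogenous compounds were followed in the proximal rat epididymis, in the initial segment that receives testicular fluid first, after that fluid was cut off. The members were the genes whose array symbol places them among the cytosolic glutathione transferases (Gst), the microsomal glutathione transferases (Mgst), the UDP-glucuronosyltransferases (Ugt), the sulfotransferases (Sult), the aldehyde dehydrogenases (Aldh), the aldo-keto reductases (Akr) and the cytochromes P450 (Cyp). Cyp51, an enzyme of sterol synthesis, was left out. They numbered 135 of the 14217 genes named on the array. Each gene was represented by its probe set of highest mean over the 16 arrays. Of the 135, 49 were tested, having reached a log2 level of 5 on 4 or more of the 16 arrays. The other 86 were not, and 78 of those were below that level on all 16 arrays.

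The animals were normal adult male Sprague-Dawley rats of 275 to 450 g. Efferent ducts were tied on 1 side, which stops the lumicrine (duct-borne) flow of testicular fluid, and the opposite side of the same animal received a sham operation. The labels give 4 groups of 4 arrays, namely sham and ligation for 6 h, 12 h and 18 h. All 3 ligation times were set against the same 4 sham arrays, so those comparisons share their controls. The labels give no sham group for each time, so that ligation and the time since surgery cannot be told apart. They do not say which ligated and sham samples came from 1 animal. The tissue was bulk, so fewer cells of a type and less RNA per cell cannot be told apart. All levels below are log2 values, on which a difference of 1 is a doubling or halving, and all changes are later minus earlier time or ligated minus sham, ± standard error.

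In the usual scheme of drug and steroid metabolism, cytochromes P450, aldo-keto reductases and aldehyde dehydrogenases change a reactive group on the substrate. Transferases then add glutathione, glucuronic acid or sulfate, and export pumps remove the product. Several members also serve everyday metabolism: aldehyde dehydrogenases make retinoic acid and act in proline and carnitine metabolism, and sulfotransferases inactivate estrogens. Epididymal epithelium is known for abundant glutathione-handling enzymes, which protect sperm and the duct lining.

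Of the 5 members that fell by 18 h, 4 are shown here with their upstream sequence because the results of the Akr, Aldh and Gst families turn on them. The sequences were read from RefSeq (rat assembly GRCr8) to show what lies next to their start sites. Each line gives the 250 bases before the annotated start, 5′ to 3′ on the gene's strand, and capitals mark matches, on either strand, to 3 short motifs: TGACNNNGC, the core of the antioxidant response element bound by NRF2; GCGTG, the core of the xenobiotic response element bound by the aryl hydrocarbon receptor; and CCGGAAG, a core bound by ETS factors.
Akr1a1 (chr5:135346232-135346481, minus strand): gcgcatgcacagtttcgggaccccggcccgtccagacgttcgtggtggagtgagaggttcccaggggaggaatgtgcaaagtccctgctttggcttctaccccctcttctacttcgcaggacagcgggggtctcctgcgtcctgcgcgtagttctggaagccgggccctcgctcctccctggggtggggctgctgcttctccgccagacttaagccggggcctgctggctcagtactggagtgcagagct
Aldh4a1 (chr5:157162939-157163188, plus strand): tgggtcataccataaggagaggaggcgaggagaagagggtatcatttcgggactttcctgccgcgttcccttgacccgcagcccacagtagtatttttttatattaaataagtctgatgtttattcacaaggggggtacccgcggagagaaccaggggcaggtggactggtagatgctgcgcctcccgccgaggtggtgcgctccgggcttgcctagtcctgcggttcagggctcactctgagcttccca
Aldh9a1 (chr13:82038429-82038678, plus strand): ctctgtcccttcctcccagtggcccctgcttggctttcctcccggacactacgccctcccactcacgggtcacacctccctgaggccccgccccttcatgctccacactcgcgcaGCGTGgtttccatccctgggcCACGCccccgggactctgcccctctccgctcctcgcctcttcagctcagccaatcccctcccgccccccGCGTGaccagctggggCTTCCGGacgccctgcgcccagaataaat
Gsta3 (chr9:31154739-31154988, plus strand, the first of its annotated starts): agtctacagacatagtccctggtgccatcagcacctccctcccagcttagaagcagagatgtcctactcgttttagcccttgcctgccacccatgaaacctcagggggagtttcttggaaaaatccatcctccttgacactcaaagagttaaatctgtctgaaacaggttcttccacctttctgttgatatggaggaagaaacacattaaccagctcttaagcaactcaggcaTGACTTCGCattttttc
The Gsta3 window held 1 antioxidant response element core, beginning 17 bases before the start. A window at another annotated start of Gsta3 held 1 xenobiotic response element core instead, 233 bases before that start. The Aldh9a1 window held 3 xenobiotic response element cores, 135, 114 and 45 bases before the start, and 1 ETS core at 29 bases. None of the 3 motifs was found in the Akr1a1 and Aldh4a1 windows shown. Windows existed for 8 of the 11 members called in any comparison. Of the others, Gstm7 held an antioxidant response element core 14 bases before its start, and none of the 3 was found for Cyp2b21, Sult1c2a or Gsta1. Short motifs are common: of 33469 windows of all genes, 10.1% held the antioxidant core, 25.9% the xenobiotic core and 7.27% the ETS core, against 10.6%, 25.7% and 2.65% of the 113 windows of members. A match describes these letters and does not show a bound site.

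Arrays 1 and 2 of each group differed from arrays 3 and 4 across the genome: with group in the model, 36.9% of the 13410 tested probe sets were called between them, and so were 30.6% of the tested members, 6 higher and 9 lower in replicates 3 and 4. Control probe sets put the arrays into 3 sets. The dap spike-in was at the floor of 2.22 in all replicates 1 and 2, at 7.10 to 7.93 in replicates 3 and 4 of sham and 6 h, and again at the floor in replicates 3 and 4 of 12 h and 18 h. Those last arrays stood apart in the difference between the 3′ and 5′ probe sets of Gapdh, a sign of RNA quality: it was 0.19 to 0.29 there, against -0.03 to 0.15 in replicates 1 and 2 and -0.10 to 0.07 in replicates 3 and 4 of sham and 6 h. The labels do not say what these sets are, and the part of RNA quality in the members' changes was not tested. Changes are also given within replicates 1 and 2, which form 1 set, and within replicates 3 and 4. In replicates 3 and 4, set and ligation time cannot be told apart for 12 h and 18 h against sham or 6 h, so a like change there is no second check within a set. The adjusted p with the set as a block is given where it ends or makes a call; such a fit takes the step from sham and 6 h to 12 h and 18 h from replicates 1 and 2. Epithelial markers were all 8 above the minimum, and so were Ros1, Cst8, Ggt1, Adam7 and Cst11 of the initial segment. Etv5, an ETS factor of the same cells, had means of 9.46 in sham, 3.82 at 12 h, under the minimum, and 5.10 at 18 h. Of the epithelial markers, Cldn3 and Cldn4 were called higher at 12 h and 18 h (with the set as a block, adjusted p = 0.0649 for Cldn3 at 18 h and 0.0762 for Cldn4 at 12 h). Summed over 7 spermatid and sperm genes, levels were 29.73 to 41.73 in sham, 18.70 to 31.53 at 6 h, 18.71 to 24.48 at 12 h and 18.74 to 20.43 at 18 h. Smcp was called lower already at 6 h, when no member was (change -3.99, limma adjusted p = 0.0487, and 0.0506 with the set as a block). All 3 of those tested fell at both later times, Smcp at 12 h with an adjusted p of 0.0509 with the set as a block. Of the 6 tested principal cell markers, 2 fell at 12 h and 2 at 18 h. Fibroblast markers (7 of 8 tested) and macrophage markers (6 of 8) were called lower in replicates 3 and 4 than in 1 and 2; none of the fibroblast markers and 1 of the macrophage markers was called at 18 h against sham. Summed over 9 genes each, they ran from 75.59 to 89.92 and from 49.15 to 55.42 in sham, and from 76.75 to 91.38 and from 51.93 to 62.81 at 18 h. Of 3 tested endothelial markers, Kdr was called higher at 18 h against sham (0.95 ± 0.21, limma adjusted p = 0.00876). With the set as a block, further markers were called, given here with their changes in the main fit. Lower were Prm1 at 6 h (-3.56, limma adjusted p = 0.0392), Ros1 at 12 h (-0.53, 0.0306) and 18 h (-0.54, 0.0242), and Cst11 at 12 h (-0.63, 0.0483). Higher were Krt8 (0.48, 0.0484) and Pdgfra (0.59, 0.0459) at 18 h and Cd14 at 12 h (1.225, 0.0289). The part of these markers in the members' changes was not tested. Hepatocytes and Leydig cells would bring P450s of their own. Their markers outside the 7 families were all below the minimum, with sums of 10.37 to 11.33 over 4 genes and 6.65 to 6.69 over 3. The sums leave out the P450s on those lists, namely Cyp2c11, Cyp2e1, Cyp11a1 and Cyp17a1. Of these, Cyp2e1 reached the minimum on 3 arrays, at up to 6.74, and the others on none.

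By the test, the first calls among the detoxification genes came at 12 h: Akr1a1, Aldh4a1 and Sult1c2a fell and Cyp4f4 and Akr1b1 rose. At 6 h none of the 49 tested members was called by limma (adjusted p under 0.05), beside 0.283% of all tested probe sets, and 1 had an unadjusted p under 0.05. At 12 h, 5 members changed, 2 higher and 3 lower, which is 10.2% of the 49 beside 7.86% of all tested probe sets. At 18 h, 7 changed, 2 higher and 5 lower, or 14.3% beside 10.2% of all. Split by direction, the background was 3.77% higher and 4.09% lower at 12 h, and 5.2% higher and 4.96% lower at 18 h. These shares are near the background and are no result about the families as a whole. The median change of the 49 was -0.07 at 6 h, -0.01 at 12 h and -0.00 at 18 h, against 0.02, 0.02 and 0.01 over all tested probe sets. Counted by arrays without overlap with sham, at 6 h no member was higher on all 4 arrays (2.87% of all tested probe sets were) and 3 were lower (1.54%), namely Gstm5, Sult1a1 and Aldh4a1. At 12 h 1 was higher (6.37%) and 3 were lower (5.41%), and at 18 h 1 was higher (7.66%) and 5 were lower (6.53%).

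**Figure D1:**
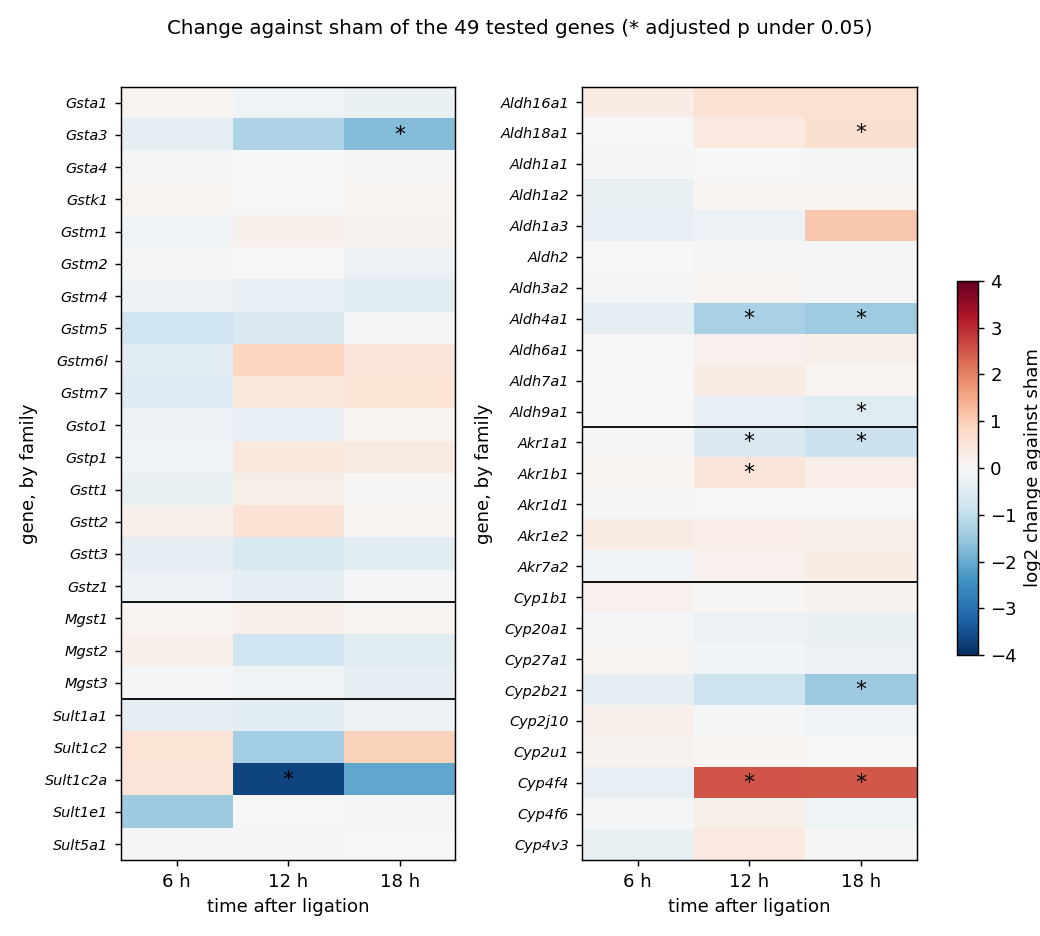
Heat map of the change in log2 level (ligated minus sham) of the 49 tested members at 6 h, 12 h and 18 h, ordered by family, with calls at an adjusted p under 0.05 marked. The marks are absent at 6 h, number 5 at 12 h and 7 at 18 h, and most cells are pale.

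Calls by family stand beside 7.86% of all tested probe sets at 12 h against sham and 10.2% at 18 h. Of 16 tested Gst members, none was called at 12 h and 1 fell at 18 h (6.25%). None of the 3 Mgst members was called at any time. Of 5 Sult members, 1 fell at 12 h (20%). Of 11 Aldh members, 1 fell at 12 h (9.09%), and 1 rose and 2 fell at 18 h (27.3%). Of 5 Akr members, 1 rose and 1 fell at 12 h (40%), and 1 fell at 18 h (20%). Of 9 Cyp members, 1 rose at 12 h (11.1%), and 1 rose and 1 fell at 18 h (22.2%). With so few tested members a family, 1 call moves the share far, and no family was tested as a set. No member of the Ugt family with a symbol of its own was tested.

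Among the aldo-keto reductases, which reduce aldehydes and ketones with NADPH, Akr1a1 fell with the smallest p of all members. It encodes aldehyde reductase, which in rodents also makes the vitamin C precursor gulonate. Its levels were 12.77, 12.86, 12.85 and 12.82 in sham and 12.84, 12.75, 12.82 and 12.76 at 6 h. At 12 h they were 12.10, 12.38, 12.14 and 12.35, and at 18 h 11.82, 11.96, 12.05 and 12.03. The sham and 6 h arrays lay together, and every array of 12 h and 18 h was below all 8 of them. The change was -0.58 ± 0.09 at 12 h (n = 4 per group, limma adjusted p = 0.000768) and -0.86 ± 0.09 at 18 h (limma adjusted p = 2.6e-05). Within replicates 1 and 2 it was -0.58 and -0.92, and within replicates 3 and 4 -0.59 and -0.80.

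Akr1b1, aldose reductase, which turns glucose into sorbitol, went the other way at 12 h. Sham arrays were at 9.14, 9.04, 9.27 and 8.74, and 12 h arrays at 9.65, 9.44, 9.68 and 9.52, without overlap. The change was 0.52 ± 0.14 (limma adjusted p = 0.0346; 0.46 and 0.59 within the pairs of replicates), and the adjusted p was 0.0527 with the set as a block. Leaving out sham replicate 2 or 4, or 12 h replicate 1, 3 or 4, raised it to between 0.0608 and 0.115. At 18 h the levels were 9.70, 9.30, 9.20 and 9.03, of which those of replicates 3 and 4 lay within the sham range, and the change of 0.26 was not called. The 3 other tested members were not called against sham: Akr1d1, a steroid reductase of bile acid synthesis, Akr1e2 and Akr7a2 changed by -0.11 to 0.30 over the 3 times. Akr1d1 stood at 1 value, 7.25, on 13 of 16 arrays, so its changes can hardly be read.

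The aldehyde dehydrogenases oxidise aldehydes to acids, and 3 of the 11 tested changed. Aldh4a1, the mitochondrial enzyme that completes proline breakdown to glutamate, was at 10.53, 10.40, 10.39 and 10.32 in sham. It was at 9.96, 10.10, 9.93 and 10.15 after 6 h, at 9.39, 9.93, 8.37 and 8.83 after 12 h, and at 8.94, 8.87, 8.76 and 9.33 after 18 h. Every ligated array was below every sham array. The change at 6 h, -0.38, was not called. Aldh4a1 fell at both later times, with a change of -1.28 ± 0.25 at 12 h (limma adjusted p = 0.00506) and -1.43 ± 0.25 at 18 h (limma adjusted p = 0.00168). Within replicates 1 and 2 the changes were -0.81 and -1.56, and within replicates 3 and 4 -1.76 and -1.31.

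Aldh18a1 catalyses the opposite branch, making the proline precursor from glutamate. Its sham arrays were at 6.20, 6.25, 6.15 and 6.42 and its 18 h arrays at 6.63, 6.95, 7.33 and 6.63, without overlap. It rose by 0.63 ± 0.17 at 18 h (limma adjusted p = 0.0340; 0.56 and 0.69 within the pairs of replicates). The call was narrow: the adjusted p was 0.0520 with the set as a block, and 0.0515 to 0.102 without any 1 of the 4 sham arrays or without 18 h replicate 2 or 3.

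Aldh9a1, which oxidises aminoaldehydes and supplies a step of carnitine synthesis, was at 10.43, 10.47, 10.46 and 10.55 in sham. It was at 10.36, 10.40, 10.47 and 10.55 at 6 h, at 9.95, 10.30, 10.23 and 10.13 at 12 h, and at 10.05, 9.81, 10.09 and 10.03 at 18 h. The 12 h and 18 h arrays were all below the sham arrays. Only the 18 h change passed the test, at -0.48 ± 0.09 (limma adjusted p = 0.00467; -0.52 and -0.44 within the pairs of replicates). The 12 h change was -0.32, with a limma adjusted p of 0.0515.

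The retinaldehyde dehydrogenases, which make retinoic acid, were not called. Aldh1a1 and Aldh1a2 changed by -0.31 to 0.09 over the 3 times. Aldh1a3 was at 8.37, 9.80, 9.29 and 9.28 in sham and at 10.36, 10.96, 10.88 and 8.85 at 18 h, where 3 of 4 arrays exceeded the sham range and replicate 4 lay inside it. Its change of 1.08 ± 0.44 had a limma adjusted p of 0.154. Aldh2, the mitochondrial enzyme of ethanol breakdown, moved by -0.09 to -0.02. Aldh3a2, Aldh6a1, Aldh7a1 and Aldh16a1 changed by -0.06 to 0.62, with no call. With the set as a block Aldh16a1 was called higher at 12 h (0.84, limma adjusted p = 0.0386) and 18 h (0.82, 0.0393), and Aldh7a1 at 12 h (0.43, 0.0350).

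**Figure D2:**
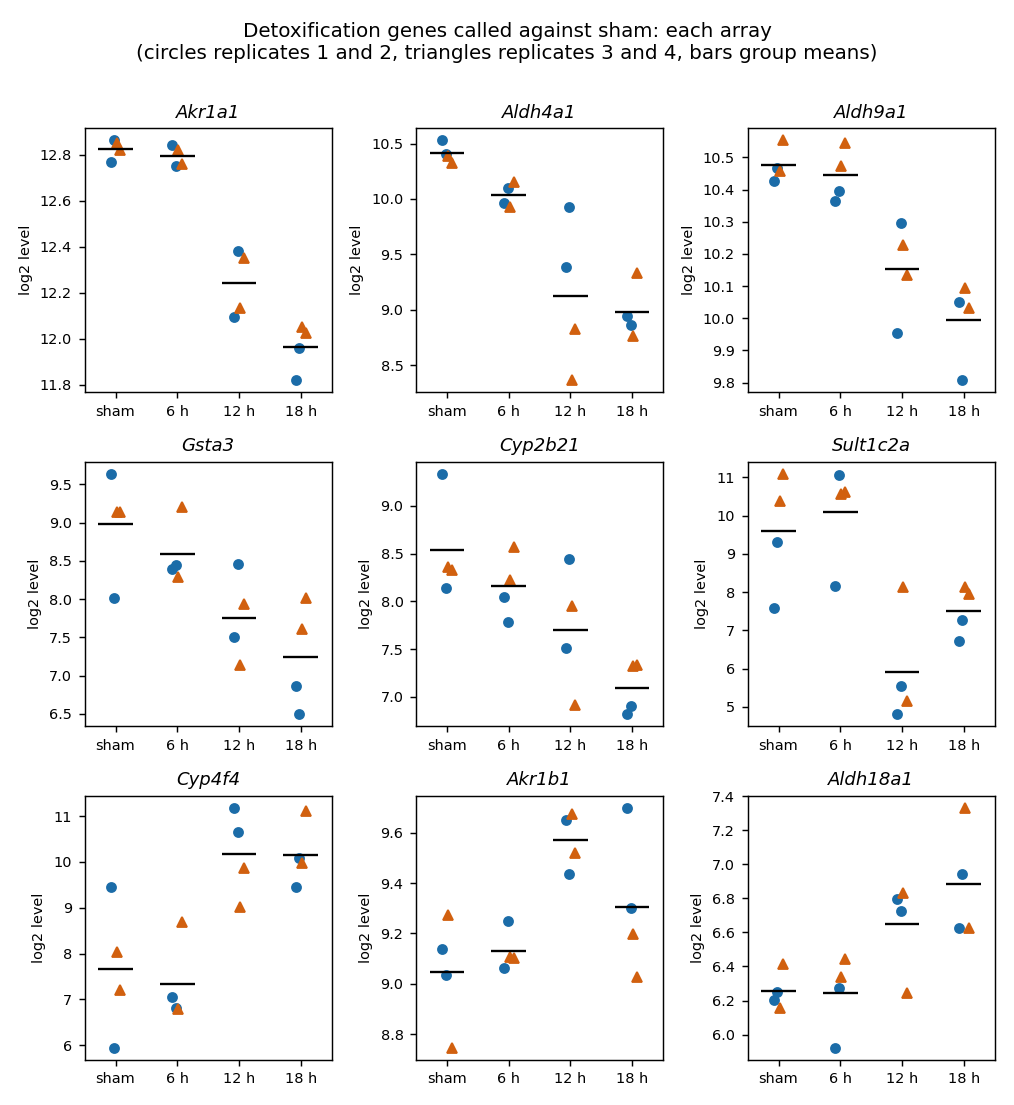
Log2 level on each of the 16 arrays for the 9 members called against sham, 1 panel a gene, with circles for replicates 1 and 2, triangles for replicates 3 and 4 and a bar for the mean of each group. Akr1a1, Aldh4a1 and Aldh9a1 step down by 12 h or 18 h without overlap with sham, while the sham points of Cyp4f4 reach from 5.94 to 9.45.

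Of the cytochromes P450, which insert oxygen into lipids, steroids and drugs, 9 of 57 were tested. Cyp4f4, which hydroxylates leukotrienes and other fatty acids at their far end, had higher means at both later times but also a wide sham group. Its levels were 9.45, 5.94, 8.03 and 7.21 in sham, 7.06, 6.81, 6.79 and 8.69 at 6 h, 11.17, 10.65, 9.03 and 9.88 at 12 h, and 9.44, 10.09, 9.98 and 11.12 at 18 h. The highest sham array lay inside the range of both later groups. The change was 2.52 ± 0.68 at 12 h (limma adjusted p = 0.0352; 3.22 and 1.83 within the pairs of replicates) and 2.50 ± 0.68 at 18 h (limma adjusted p = 0.0314; 2.07 and 2.93). With the set as a block the adjusted p rose to 0.0603 and 0.0582. It was also above the threshold without sham replicate 2, 3 or 4, or without 12 h replicate 1, 2 or 4, at 0.0597 to 0.112 at 12 h, and without sham replicate 2, 3 or 4, or 18 h replicate 2, 3 or 4, at 0.0556 to 0.0904 at 18 h.

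Cyp2b21, of a P450 subfamily known for drug oxidation, was lower after ligation. Sham arrays were at 9.33, 8.14, 8.36 and 8.33 and 6 h arrays at 8.05, 7.79, 8.22 and 8.57. At 12 h they were at 7.51, 8.45, 7.95 and 6.91, which overlaps sham, and at 18 h at 6.82, 6.91, 7.32 and 7.33, all below sham. It fell by 1.45 ± 0.31 at 18 h (limma adjusted p = 0.00862; -1.87 and -1.02 within the pairs of replicates). The 12 h change of -0.84 was not called. The 7 other tested P450s were not called. Cyp1b1, which oxidises estrogens and aryl hydrocarbons, changed by 0.06 to 0.18, and Cyp27a1, which hydroxylates sterols, by -0.23 to 0.10. Cyp20a1, Cyp2j10, Cyp2u1, Cyp4f6 and Cyp4v3 changed by -0.29 to 0.39.

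The sulfotransferases move a sulfate group to phenols, steroids and bile acids. Sult1c2a, of the subfamily that sulfates phenols, was at 7.57, 9.31, 10.39 and 11.08 in sham and at 8.15, 11.05, 10.58 and 10.63 at 6 h. At 12 h it was at 4.81, 5.54, 8.14 and 5.14, where 3 of 4 arrays lay below all sham arrays and replicate 3 did not. At 18 h it was at 6.71, 7.26, 8.14 and 7.95. The change was -3.68 ± 0.85 at 12 h (limma adjusted p = 0.0155; -3.27 and -4.10 within the pairs of replicates), and -2.07 at 18 h, which was not called (limma adjusted p = 0.156). The 12 h call was lost without sham replicate 3 (adjusted p = 0.0512), sham replicate 4 (0.0575) or 12 h replicate 1 (0.0545).

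Its near relative Sult1c2 was not called, with 12 h arrays at 3.32, 3.32, 6.96 and 3.32 against 5.33, 4.86, 5.01 and 7.12 in sham. Replicate 3 at 12 h was the high array for both genes. Sult1e1, the estrogen sulfotransferase, had the widest residual spread of the tested members, with a standard deviation of 1.58. Its sham levels were 6.77, 7.77, 6.08 and 5.23, its 6 h levels 6.84, 6.09, 3.25 and 3.82, and its 18 h levels 7.90, 7.81, 4.58 and 5.21. In each group replicates 1 and 2 were above replicates 3 and 4, by a mean of 2.58, and no time was called against sham. Sult1a1, the phenol sulfotransferase, was at 9.24 to 9.49 at 6 h, below all sham arrays, at 9.50 to 10.40, and its change of -0.38 was not called. Sult5a1 changed by -0.08 to -0.02, and 7 of its 16 arrays repeated 1 value, 7.50.

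Glutathione transferases, which couple glutathione to electrophiles, made up the largest tested family, and only Gsta3 was called against sham. Gsta3, an alpha-class enzyme that also isomerises steroid intermediates, was at 9.63, 8.01, 9.14 and 9.14 in sham and at 8.40, 8.45, 8.29 and 9.20 at 6 h. At 12 h it was at 7.50, 8.46, 7.13 and 7.93, and at 18 h at 6.87, 6.50, 7.61 and 8.01. All 18 h arrays but replicate 4 were below the lowest sham array, and replicate 4 equalled it to 2 decimals. Gsta3 fell by 1.73 ± 0.40 at 18 h (limma adjusted p = 0.0117; -2.14 and -1.32 within the pairs of replicates). The 12 h change of -1.22 had a limma adjusted p of 0.0786. Gsta1 was at 12.80, 12.49, 12.63 and 12.70 in sham and at 12.30, 12.38, 12.44 and 12.47 at 18 h, below every sham array, but the change was not called.

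No mu-, pi-, theta-, omega-, kappa- or zeta-class member was called against sham. Gstm5, of the mu class, had the largest 6 h change of the family, from 9.16, 9.76, 8.82 and 8.95 in sham to 8.37, 8.13, 8.60 and 8.45, without overlap, which is a change of -0.78 ± 0.28 with a limma adjusted p of 0.600. At 18 h it was at 10.03, 9.07, 8.73 and 8.49, across the sham range. Gstp1, the pi-class enzyme, changed by -0.17 to 0.42, and Gsta4, which conjugates the lipid peroxidation product hydroxynonenal, by -0.07 to 0.05. Gstm1, Gstm2, Gstm4, Gstm6l, Gsto1, Gstt1, Gstt2, Gstt3, Gstz1 and Gstk1 changed by -0.60 to 0.86 over the 3 times. The microsomal enzymes Mgst1, Mgst2 and Mgst3 were tested too. Mgst2, which also makes leukotriene C, was at 12.03, 12.83, 12.82 and 12.75 in sham and at 10.78, 11.15, 12.70 and 12.57 at 12 h. Its 12 h change of -0.81 ± 0.37 (limma adjusted p = 0.246) came to -1.46 within replicates 1 and 2, against -0.15 within replicates 3 and 4.

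**Figure D3:**
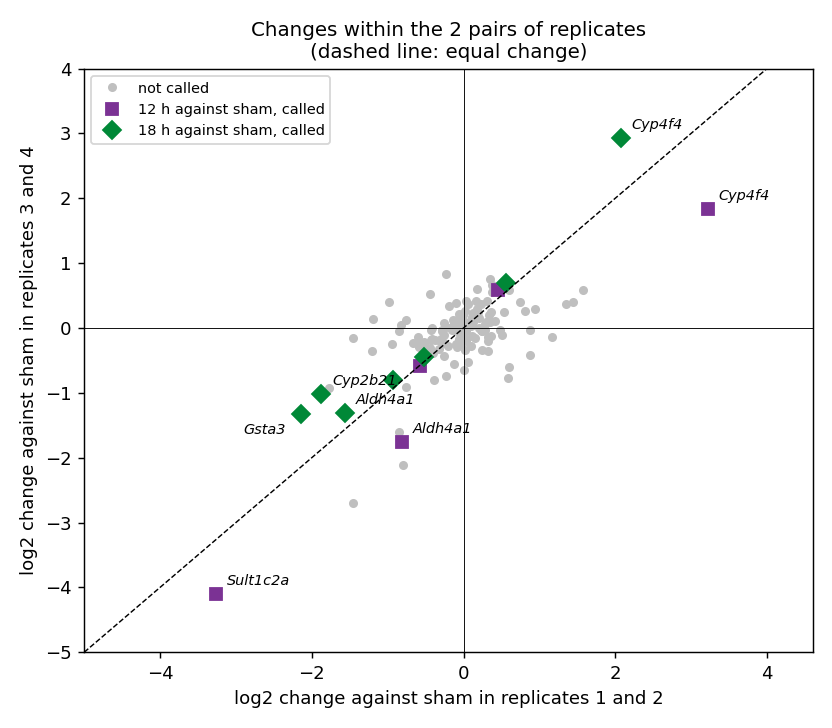
Change in log2 level against sham in replicates 1 and 2 (horizontal axis) and in replicates 3 and 4 (vertical axis) for the 49 tested members at 6 h, 12 h and 18 h, with called changes as squares (12 h) and diamonds (18 h), those beyond 1 named, and a dashed line of equal change. All called points lie in the lower left or upper right of the plot, that is, with 1 direction in both pairs of replicates. The calls were made on the same arrays, which favours such points, so this is no separate check.

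UDP-glucuronosyltransferases, which add glucuronic acid to steroids, bilirubin and drugs, could not be followed gene by gene. All 9 genes with a symbol of their own (Ugt2a1, Ugt2b, Ugt2b1, Ugt2b7, Ugt2b10, Ugt2b15, Ugt2b34l1, Ugt2b35 and Ugt8) were below the minimum on all 16 arrays. A pair of probe sets that read the shared end of the Ugt1a genes were above it, and cannot be given to any 1 of those genes. The brighter probe set was at 8.66, 8.18, 8.15 and 7.94 in sham. At 6 h it was at 7.67, 7.61, 7.31 and 7.66, without overlap, and at 12 h at 8.01 to 8.95. Its 6 h change of -0.67 ± 0.22 was not called (limma adjusted p = 0.513). The other probe set was at 7.13 to 7.58 in sham and 6.54 to 7.05 at 6 h, also without overlap. Its 6 h change of -0.61 ± 0.41 was not called. At 12 h it was at 8.40, 8.63, 6.95 and 6.29, with replicates 3 and 4 below all sham arrays.

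The other members left untested were 4 of 20 Gst, 9 of 14 Sult, 6 of 17 Aldh, 10 of 15 Akr and 48 of 57 Cyp genes. Among them were the aryl hydrocarbon receptor targets Cyp1a1 and Cyp1a2, the steroid-making Cyp11a1, Cyp17a1 and Cyp19a1, the hepatic drug-metabolising Cyp2c11 and Cyp2e1, the hydroxysteroid sulfotransferases Sult2a1 and Sult2a2, and the steroid-reducing Akr1c genes. Of the 86, 8 reached the minimum on 1 to 3 arrays: Aldh5a1, Cyp26b1, Cyp2e1 and Cyp4b1 on 3, Akr1c13 on 2, and Akr1b8, Akr1c19 and Cyp2b12 on 1. Cyp2b12 reached 7.47 on its single array, at 6 h. A level under the minimum on these arrays is a limit of the probe set and not a measured absence.

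Between ligation times, members were called against 6 h and not between 12 h and 18 h. From 6 h to 12 h, 3 members changed (6.12% beside 4.28% of all tested probe sets), 1 higher (background 1.82%) and 2 lower (2.46%). The change was -0.55 ± 0.09 for Akr1a1 (limma adjusted p = 0.00311), -4.20 ± 0.85 for Sult1c2a (0.0135) and 2.84 ± 0.68 for Cyp4f4 (0.0315). Sult1c2a lost its call without 12 h replicate 1 (adjusted p = 0.0505). From 12 h to 18 h none was called, and none of the 13410 probe sets was, by limma; 3 members and 877 probe sets had an unadjusted p under 0.05. From 6 h to 18 h, 7 changed (14.3% beside 7.88%), 3 higher (background 3.54%) and 4 lower (4.34%). The change was -0.83 ± 0.09 for Akr1a1 (limma adjusted p = 8.97e-05), -1.06 ± 0.25 for Aldh4a1 (0.0170) and -0.45 ± 0.09 for Aldh9a1 (0.00945). It was 2.82 ± 0.68 for Cyp4f4 (0.0202), 1.08 ± 0.29 for Gstm7 (0.0319) and 0.64 ± 0.17 for Aldh18a1 (0.0376). The seventh was Gsta1, which falls outside the rule for named genes and is named after its values were seen; it fell by 0.36 ± 0.09 (limma adjusted p = 0.0305).

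Gstm7, a mu-class glutathione transferase, was at 10.01, 9.97, 10.20 and 10.71 at 6 h and at 11.64, 11.43, 11.01 and 11.12 at 18 h. Its sham arrays, at 11.43, 10.94, 10.60 and 10.02, covered most of the distance between, and neither time was called against sham. Its call between 6 h and 18 h was lost without 6 h replicate 1, 2 or 3 or 18 h replicate 1 or 2, at adjusted p of 0.0744 to 0.0916. With the set as a block the adjusted p was 0.0751 for Aldh4a1, 0.0534 for Aldh18a1 and 0.0529 for Gsta1 from 6 h to 18 h, and 0.0506 for Cyp4f4 from 6 h to 12 h. That block also made calls: Gstm6l (1.69, limma adjusted p = 0.0327), Gstm7 (1.18, 0.0413) and Sult1e1 (1.77, 0.0301) from 6 h to 12 h, and Sult1e1 (1.68, 0.0257) from 6 h to 18 h. Without 1 array at a time, Aldh4a1 lost the 18 h against 6 h call without 18 h replicate 3 (0.0531). Aldh18a1 lost it without 6 h replicate 1, 2 or 3 or 18 h replicate 2 or 3 (0.0679 to 0.116), and Cyp4f4 without 6 h replicate 1, 2 or 3 (0.0565 to 0.0635). Cyp4f4 lost the 12 h against 6 h call without 6 h replicate 1, 2 or 3 or 12 h replicate 1, 2 or 4 (0.0511 to 0.102).

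The residual standard deviation of the tested members had a median of 0.34, against 0.26 for all tested probe sets, and ran from 0.04 (Akr1d1) to 1.58 (Sult1e1). At an SE of 0.09 the change of -0.48 in Aldh9a1 was called, while at an SE of 0.44 the change of 1.08 in Aldh1a3 was not. Repeated values limit the reading of Akr1d1, Sult5a1, Cyp2j10 and Gstk1, which had 4 or more arrays within 0.01 of 1 value, as 20.9% of the tested probe sets did.

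**Figure D4:**
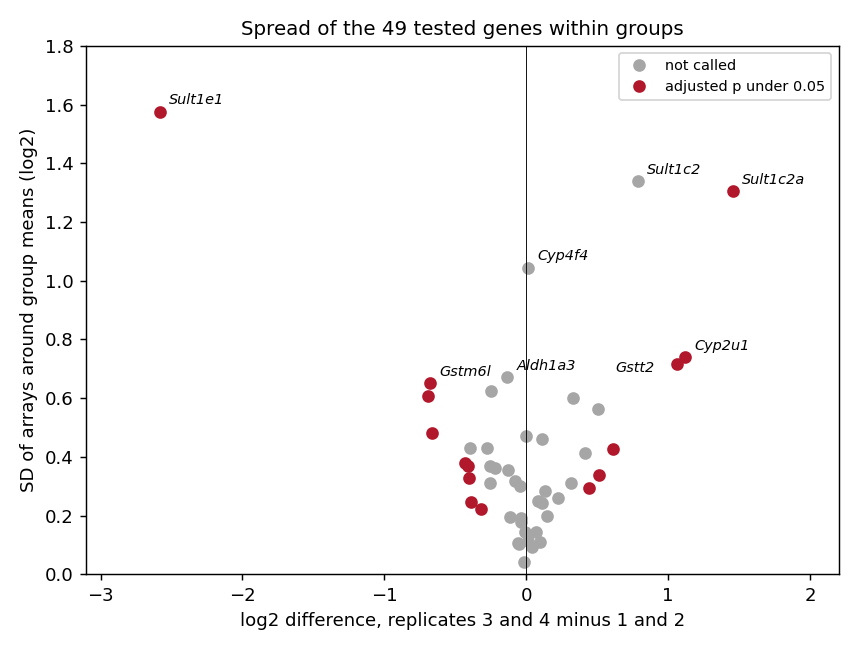
Change between replicates 3 and 4 and replicates 1 and 2 in log2 level, with group in the model (horizontal axis), against the residual standard deviation in the 4 groups (vertical axis) for the 49 tested members, with those called between the pairs of replicates (adjusted p under 0.05) in red. Sult1e1, with a change of -2.58 and a standard deviation of 1.58, stands at the top left.

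Lists of other genes of the pathway, compiled with earlier results of these data known, were counted in the same fit. No list had a gene called at 6 h. Of all tested probe sets, 3.77% were called higher and 4.09% lower at 12 h, and 5.2% and 4.96% at 18 h. The lists are short, and none was tested as a set. List medians at 12 h and 18 h were 0.12 and 0.13 for P450 partners. For other conjugating enzymes, a list that includes the prostaglandin E synthases Ptges and Ptges2, they were 0.03 and 0.33. The medians were -0.04 and 0.08 for cosubstrate supply, -0.33 and -0.42 for efflux transporters, and 0.36 and 0.25 for sensors. The sensor list also holds the retinoic acid receptors Rara, Rarb and Rarg. None of 5 P450 partners such as the reductase Por was called at any time. With the set as a block Hmox1, heme oxygenase, was called at 18 h (limma adjusted p = 0.0427). Its changes were 2.52 within replicates 1 and 2 and 1.74 within replicates 3 and 4. Hmox1 was at 5.04, 4.70, 4.05 and 4.51 in sham, with a mean of 4.57 under the minimum, so the size of its change is not firm. Of 20 other oxidising, reducing and hydrolysing enzymes, 3 rose at 12 h and 2 at 18 h, with list medians of 0.13 and 0.05 against 0.02 and 0.01 over all tested probe sets. Fmo5, a flavin monooxygenase, had the largest rise of that list. It was at 7.53, 7.34, 8.30 and 7.66 in sham and at 8.55 to 9.05 at 6 h. At 12 h it was at 9.50 to 10.25 and at 18 h at 10.07 to 11.34. All ligated arrays were above all sham arrays. The 6 h change of 0.99 ± 0.27 was not called (limma adjusted p = 0.288). Fmo5 rose by 2.21 ± 0.27 at 12 h (limma adjusted p = 0.000189) and 3.02 ± 0.27 at 18 h (limma adjusted p = 1.0e-05). Maoa, monoamine oxidase, rose by 0.47 ± 0.13 at 12 h (limma adjusted p = 0.0448), with an adjusted p of 0.231 with the set as a block and of 0.0547 to 0.115 without any of the 4 sham arrays, 6 h replicate 2 or 4, 12 h replicate 1, 2 or 4, or 18 h replicate 1 or 3. The third was the esterase Esd, named after its values were seen, at 0.33 ± 0.10 at 12 h (limma adjusted p = 0.0498) and 0.40 ± 0.10 at 18 h (0.0162). The retinol dehydrogenase Rdh10 and the xanthine dehydrogenase Xdh were called with the set as a block, at 12 h (adjusted p = 0.000705 and 0.00671) and 18 h (0.000144 and 0.00385). For Rdh10 the 18 h change was 2.57 within replicates 1 and 2 and 0.34 within replicates 3 and 4, and for Xdh 1.37 and 0.49.

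Of the 6 tested genes listed as other conjugating enzymes, 2 rose at both later times. Both are prostaglandin E synthases, which make a prostaglandin and do not conjugate. Ptges rose by 0.99 ± 0.24 and 0.98 ± 0.24 (limma adjusted p = 0.0238 and 0.0199) and Ptges2 by 0.44 ± 0.13 and 0.57 ± 0.13 (0.0491 and 0.010). Tpmt, Nat1, Nat2 and Gstcd, the rest of that list's tested genes, were not called. The 12 h call of Ptges2 was lost with the set as a block (adjusted p = 0.0507), with arrays centred on their medians (0.0639), with cyclic loess (0.0527) and without any 1 of 13 arrays, namely all but 6 h replicates 1 and 3 and 18 h replicate 4 (0.0534 to 0.134). Ptges lost its 12 h call without sham replicate 2 or 4 or 12 h replicate 2 or 3 (0.0526 to 0.0764), and its 18 h call without sham replicate 2 or 18 h replicate 1, 2 or 3 (0.0552 to 0.0675). Of 11 genes of cosubstrate supply, 1 fell at 12 h, and 2 rose and 2 fell at 18 h. Papss1, which makes the sulfate donor PAPS for the sulfotransferases, was the 1 that fell at both times, with changes of -0.52 ± 0.14 (limma adjusted p = 0.0411) and -0.67 ± 0.14 (0.00872), the first with an adjusted p of 0.126 with the set as a block. Gss, glutathione synthetase, fell by 0.62 ± 0.18 at 18 h (limma adjusted p = 0.0468, and 0.231 with the set as a block). Papss1 and Gss fall outside the rule for named genes and are named after their values were seen. Slc7a11, which imports cystine for glutathione, was at 4.40 to 4.90 in all 4 sham arrays, below the minimum, and at 8.18 to 10.01 at 18 h. Its fitted change of 4.55 ± 0.80 (limma adjusted p = 0.00194) is measured against sham levels under the minimum, so its size is not firm. Chac1, which degrades glutathione, likewise had a sham mean of 4.10 and changed by 2.88 ± 0.87 (limma adjusted p = 0.0498, and 0.0849 with the set as a block). Its call was lost without any 1 of 12 arrays, namely all but 6 h replicate 3, 12 h replicates 1 and 3 and 18 h replicate 4 (0.0505 to 0.132).

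Of 5 tested efflux transporters 1 fell at both times. Abcc4, which exports sulfate and glucuronide conjugates, was at 10.42, 11.33, 11.35 and 11.43 in sham, at 6.59, 7.49, 9.48 and 9.68 at 12 h, and at 8.79, 8.48, 8.93 and 8.55 at 18 h. All later arrays were below sham, and the change was -2.82 ± 0.53 (limma adjusted p = 0.00456) and -2.44 ± 0.53 (0.00904), with -3.83 in replicates 1 and 2 and -1.81 in replicates 3 and 4 at 12 h. Of 12 sensor genes, 5 were tested, and Ahr, Arnt, Nr1i2, Nr1i3 and Rxra were among those below the minimum. Tiparp, a target of the aryl hydrocarbon receptor that represses it, fell at both later times, with changes of -1.12 ± 0.18 at 12 h (limma adjusted p = 0.00121) and -0.95 ± 0.18 at 18 h (0.00297). Its 6 h arrays, at 7.85 to 8.48, were already below all sham arrays, at 8.72 to 9.01. The 6 h change of -0.74 ± 0.18 was not called (limma adjusted p = 0.173). Nfe2l2, which encodes NRF2, rose by 0.46 ± 0.11 at 18 h (limma adjusted p = 0.0189), a call lost without sham replicate 2 or 3 or 18 h replicate 2 (0.0562 to 0.0590). With the set as a block, Keap1 at 12 h (adjusted p = 0.0403) and the retinoic acid receptor Rara at 12 h and 18 h (0.00376 and 0.0014) were called as well.

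**Figure D5:**
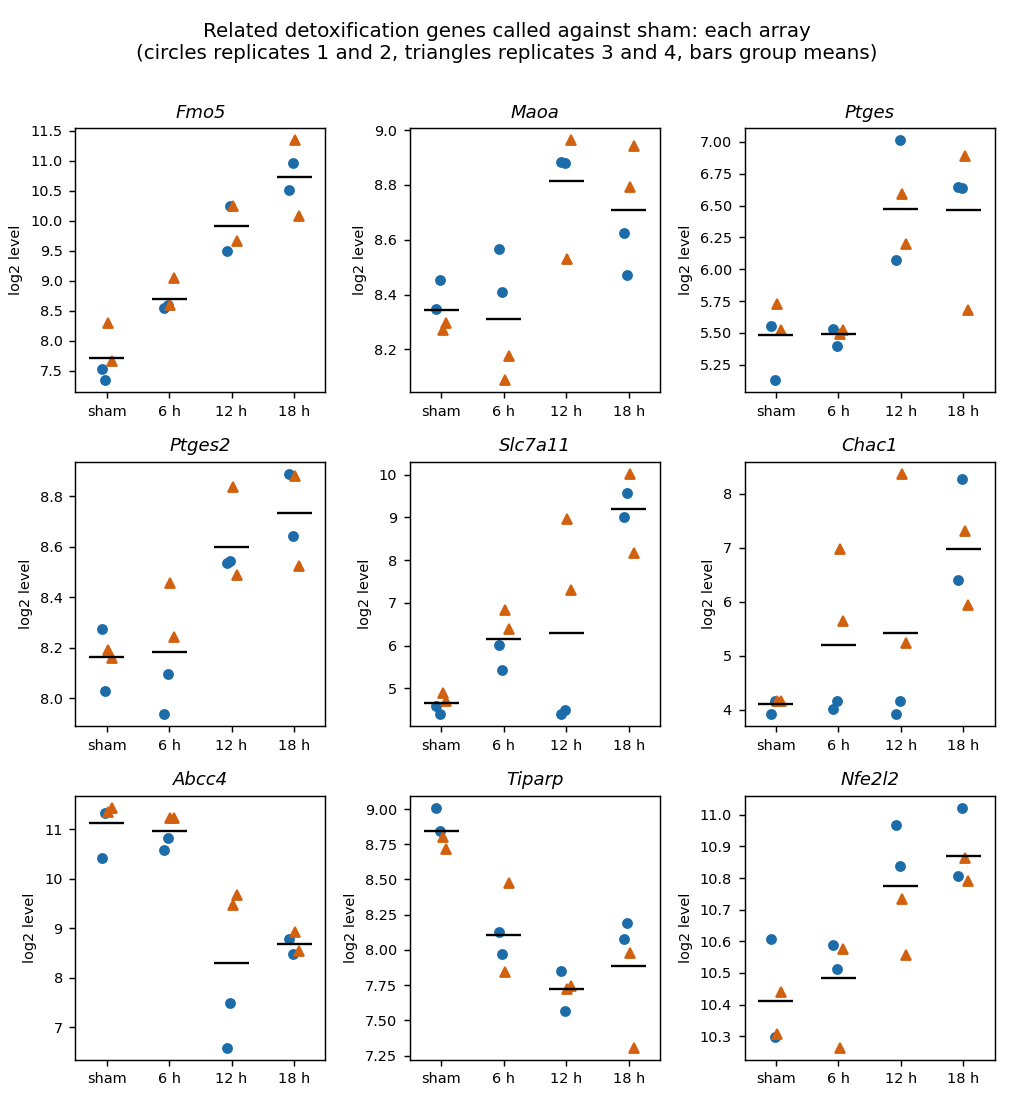
Log2 level on each of the 16 arrays for the named genes of the pathway lists, 1 panel a gene, with circles for replicates 1 and 2, triangles for replicates 3 and 4 and a bar for the group mean. Abcc4 and Tiparp are lower and Fmo5 is higher at 12 h and 18 h than in sham, without overlap. The 6 h arrays of Tiparp and Fmo5 do not overlap sham either, in the same directions, though their 6 h changes were not called.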

How the data were processed

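Total RNA of 16 tissue samples was labelled with biotin and hybridised to Affymetrix rat arrays, per the labels' protocols. The deposited table gives 1 log2 value per probe set and array, and the submitters' processing notes name GCRMA, a method that corrects background by probe sequence, quantile-normalizes and summarises; no version of it is stated in those notes. Scanner files were not analysed here. Values ran from 2.22 to 15.1, 41.2% to 41.8% of probe sets reached 5 on each array, and correlations between arrays were 0.882 to 0.986 with 0 identical pairs. Replicate number limits the precision.

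Genes were named from the 2016 platform annotation. Of the members, 134 of 135 were found by Entrez ID in the GRCr8 table, with 0 symbols changed. They had 154 probe sets with 1 symbol, and 11 more with several symbols were not assigned to a gene. Probe sets at or above 5 in at least 4 of 16 arrays were tested (13410, for 8344 genes) in R 4.3.3 with limma 3.58.1 (statmod 1.5.0), in 1 fit of 4 group means, with Benjamini-Hochberg adjustment over all of them per comparison and a call at an adjusted p under 0.05. P-values measure the spread between these arrays. On simulated data for 12 h against sham (13410 probe sets, 200 changed), 63% of changes of 1 and 94% of changes of 2 were recovered, with 4 false calls. The simulated noise was independent between arrays and held no sets of arrays, so these rates need not hold for the real data.

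Named members were, per family and time against sham, up to 4 called members of largest change in each direction, or, in a family without calls, the tested member of smallest p; per pair of times, up to 3 called members in each direction; and per pathway list up to 2 called genes of largest change. Other tested members are described by ranges. The members, lists and tests were chosen with earlier results of these data known. Alternatives covered the prior, the minimum level, scaling, blocks, subsets of arrays, array weights, averaging of probe sets and thresholds.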

Additional observations from a re-analysis of the deposited data

Results flagged for a closer look

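In 196 groups of 4 arrays (49 tested members in 4 groups), 17 held an array far from the other 3, its gap to the nearest of them filling more of the group's range than Dixon's critical value allows. Chance gives about 1 in 20. Of the 17, 8 were arrays of replicates 3 or 4. In the sham group these were replicate 1 for Gstm2 (13.11), Mgst2 (12.03), Sult5a1 (7.50), Aldh6a1 (11.05) and Aldh7a1 (9.74). In the 6 h group they were Gsta4 (12.49, replicate 4), Gstp1 (13.11, replicate 4), Sult1c2a (8.15, replicate 1), Aldh6a1 (10.63, replicate 2), Akr1d1 (7.08, replicate 3), Cyp1b1 (9.88, replicate 1) and Cyp4f4 (8.69, replicate 4). At 12 h they were Sult1c2 (6.96, replicate 3), Aldh1a2 (6.05, replicate 4) and Cyp2j10 (6.17, replicate 3). At 18 h they were Gstp1 (13.45, replicate 4) and Akr1e2 (7.36, replicate 2).

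Differences between ligation times, tested directly with limma, were called for these members. From 6 h to 12 h the changes were -4.20 for Sult1c2a, -0.55 for Akr1a1 and 2.84 for Cyp4f4. From 6 h to 18 h they were -0.36 for Gsta1, 1.08 for Gstm7, 0.64 for Aldh18a1, -1.06 for Aldh4a1, -0.45 for Aldh9a1, -0.83 for Akr1a1 and 2.82 for Cyp4f4.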

How the results depend on the processing

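At 6 h against sham and at 18 h against 12 h, 0 members were called with the main settings and, without any 1 array, 0 again. The 35 named results (21 of members) were each recomputed under up to 31 alternatives. Of the 35, 31 lost their call in at least 1 alternative and 0 reversed direction. Settings that change only the threshold, the prior or the minimum level leave the change as it was and could not reverse it. The same holds for leaving out an array of a group not compared and for fitting only the 2 groups compared. It also holds for a block of replicate numbers or of replicate pairs, which are balanced over the groups. Aldh4a1 at 18 h against sham was the 1 member result that kept its call in every alternative. Akr1a1 at 12 h and 18 h, Aldh4a1 at 12 h and 18 h, and Aldh9a1, Gsta3 and Cyp2b21 at 18 h, all against sham, kept theirs in every fit without 1 array.

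The number of called members (5 at 12 h against sham, 7 at 18 h against sham, 3 at 12 h against 6 h, 7 at 18 h against 6 h) moved as follows; the cause was not tested unless the setting itself removes samples or probe sets. At 12 h against sham it was 2 with no minimum level, 1 with only the 2 groups compared, 2 in replicates 1 and 2 alone, 2 in replicates 3 and 4 alone, 15 with array weights, 2 at an adjusted p under 0.01 and 3 with a change of at least 1. At 18 h against sham it was 4 with only the 2 groups, 2 in replicates 1 and 2, 3 in replicates 3 and 4, 11 with array weights, 4 at 0.01 and 4 with a change of at least 1. At 12 h against 6 h it was 1 with no minimum, 8 with the replicate block, 8 with replicates 1 and 2 against 3 and 4 as a block, 5 with the set block, 0 in replicates 3 and 4, 6 with array weights and 1 at 0.01. At 18 h against 6 h it was 3 with no minimum, 13 with the replicate block, 13 with the block of replicate pairs, 4 in replicates 1 and 2, 1 in replicates 3 and 4, 2 at 0.01 and 3 with a change of at least 1. Without 1 array at a time it was 2 to 6 at 12 h (2 without sham replicate 4), 5 to 7 at 18 h, 1 to 6 at 12 h against 6 h (1 without 12 h replicate 1) and 3 to 10 at 18 h against 6 h (3 without 6 h replicate 2). The share of all tested probe sets called under each setting is not given. These movements can therefore not be read as particular to the members.

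Replicate numbers were taken to pair the samples only if the deviations of every pair of same-numbered arrays correlated above 0.1. They ran from 0.0065 to 0.556, above 0.1 in 23 of 24 pairs, so the numbers are not treated as pairs, and 11 of 16 arrays correlated best with their own number. With the replicate block 6 members were called at 12 h and 8 at 18 h against sham. The block made calls of Aldh9a1 at 12 h (adjusted p = 0.0385) and Sult1c2a at 18 h (0.0244). In all, 33 member results of 19 members were called under an alternative only, a count with no share over all tested probe sets beside it.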
